A study of Mus musculus with 32 samples.

Results

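Epithelial-mesenchymal transition (EMT) transcription factors and the intermediate filament vimentin were examined in 32 primary mouse melanomas. The members were 9 genes chosen by name: the zinc finger factors Snai1 and Snai2, the basic helix-loop-helix factors Twist1 and Twist2, the zinc finger homeobox factors Zeb1 and Zeb2, the homeobox gene Prrx1, the forkhead gene Foxc2 and Vim. Each name matched 1 of the 50600 Ensembl genes in the deposited tables, and all 9 passed the filter on low counts that left 17717 genes for testing. The tumours formed 4 groups of 8, Ecad male, Ecad female, ΔEcad male and ΔEcad female. All mice carried a mutant Nras transgene driven by the tyrosinase promoter (Tyr::NrasQ61K), were Cdkn2a-/+ and had floxed Cdh1 alleles (Cdh1F/F), Cdh1 being the gene of E-cadherin. Ecad mice lacked the further transgene (°/°), and the label of ΔEcad mice writes it as Tyr::NRAS/°. The study's methods describe this transgene as a Cre recombinase under the tyrosinase promoter, which restricts the deletion of Cdh1 to cells of the melanocyte lineage. Age was not given in the labels, nor whether any of the tumours shared a mouse, so p-values measure the spread between these tumours.

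EMT transcription factors bind E-box motifs and repress epithelial genes, of which Cdh1 is the classical target, while vimentin is a filament protein of mesenchymal cells. Melanocytes arise from the neural crest, and differentiated melanocytes contain ZEB2 and SNAI2. In melanoma a switch from ZEB2 and SNAI2 to ZEB1 and TWIST1 is known to accompany loss of differentiation. Fibroblasts and other stromal cells also transcribe Snai1, Twist1, Twist2, Prrx1 and Vim. In a bulk tumour a larger share of such cells and more RNA per cell cannot be told apart.

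The libraries held between 24036333 and 63923086 counts, with a median of 34684496. Sex genes matched the label in 31 libraries. The library labelled ΔEcad male 2 had 6.41 TPM (the counts scaled to transcript length and library size) of Xist and 0 TPM summed over 4 Y-linked genes, against at most 0.2 TPM of Xist and at least 20.76 TPM of the Y-linked genes in the other 15 male libraries. Cdh1 ranged from 25 to 282 TPM among Ecad males (median 145) and from 0.79 to 65.2 TPM among ΔEcad males (median 3.29). Among females it ranged from 2.16 to 151 TPM with the Ecad label (median 30.6) and from 0.17 to 143 TPM with the ΔEcad label (median 46.7). Bulk Cdh1 RNA thus did not separate the female genotypes (log2 fold change -0.00, SE 0.87, adjusted p = 0.999, edgeR), and the lower level in ΔEcad males did not pass adjustment (log2 fold change -3.33, SE 0.96, adjusted p = 0.365). Groups are named by their labels throughout. A keratinocyte marker score, the mean of 8 genes in log2 CPM (counts scaled to library size), had a median of 6.36 in ΔEcad females and -3.39 in Ecad females; its part in the Cdh1 level was not tested.

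A pair of tumours stood apart in the members themselves. ΔEcad male 7 had the highest level of all 32 tumours in 5 of the 9 members and was among the top 2 in 7. ΔEcad female 3 was highest in 3 members, among the top 2 in 6 and above the median in all 9. They differed in their cell markers. In ΔEcad male 7 the melanocytic score was 0.56 on the log2 CPM scale, the lowest of the 32, with Dct at 4.98 TPM and Sox10 at 0.49 TPM, and none of the 8 melanocytic markers was above its median. This tumour had the highest fibroblast score (9.67, 8 of 8 markers above their median) and the highest macrophage score (7.84). In ΔEcad female 3 the melanocytic score was 9.07 (rank 28) and the fibroblast score 7.08 (rank 14), with 5 of 8 fibroblast markers above their median. Col1a1 (4360 TPM), Col3a1 (2817.5 TPM), Col1a2 (1909 TPM) and Fbln1 (151 TPM) were the highest of the 32 tumours. In the same tumour Dcn (2.24 TPM) and Lum (0.11 TPM) were the lowest of the 32. Its macrophage (-2.97), endothelial (-3.26) and T cell (-4.29) scores were the lowest of all, with 5 of 8 macrophage markers and 5 of 6 T cell markers at 0 counts, and it had the lowest Cdh1 level (0.17 TPM). Differences between groups are given below with these tumours, and without them where that moved the value most.

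**Figure D1:**
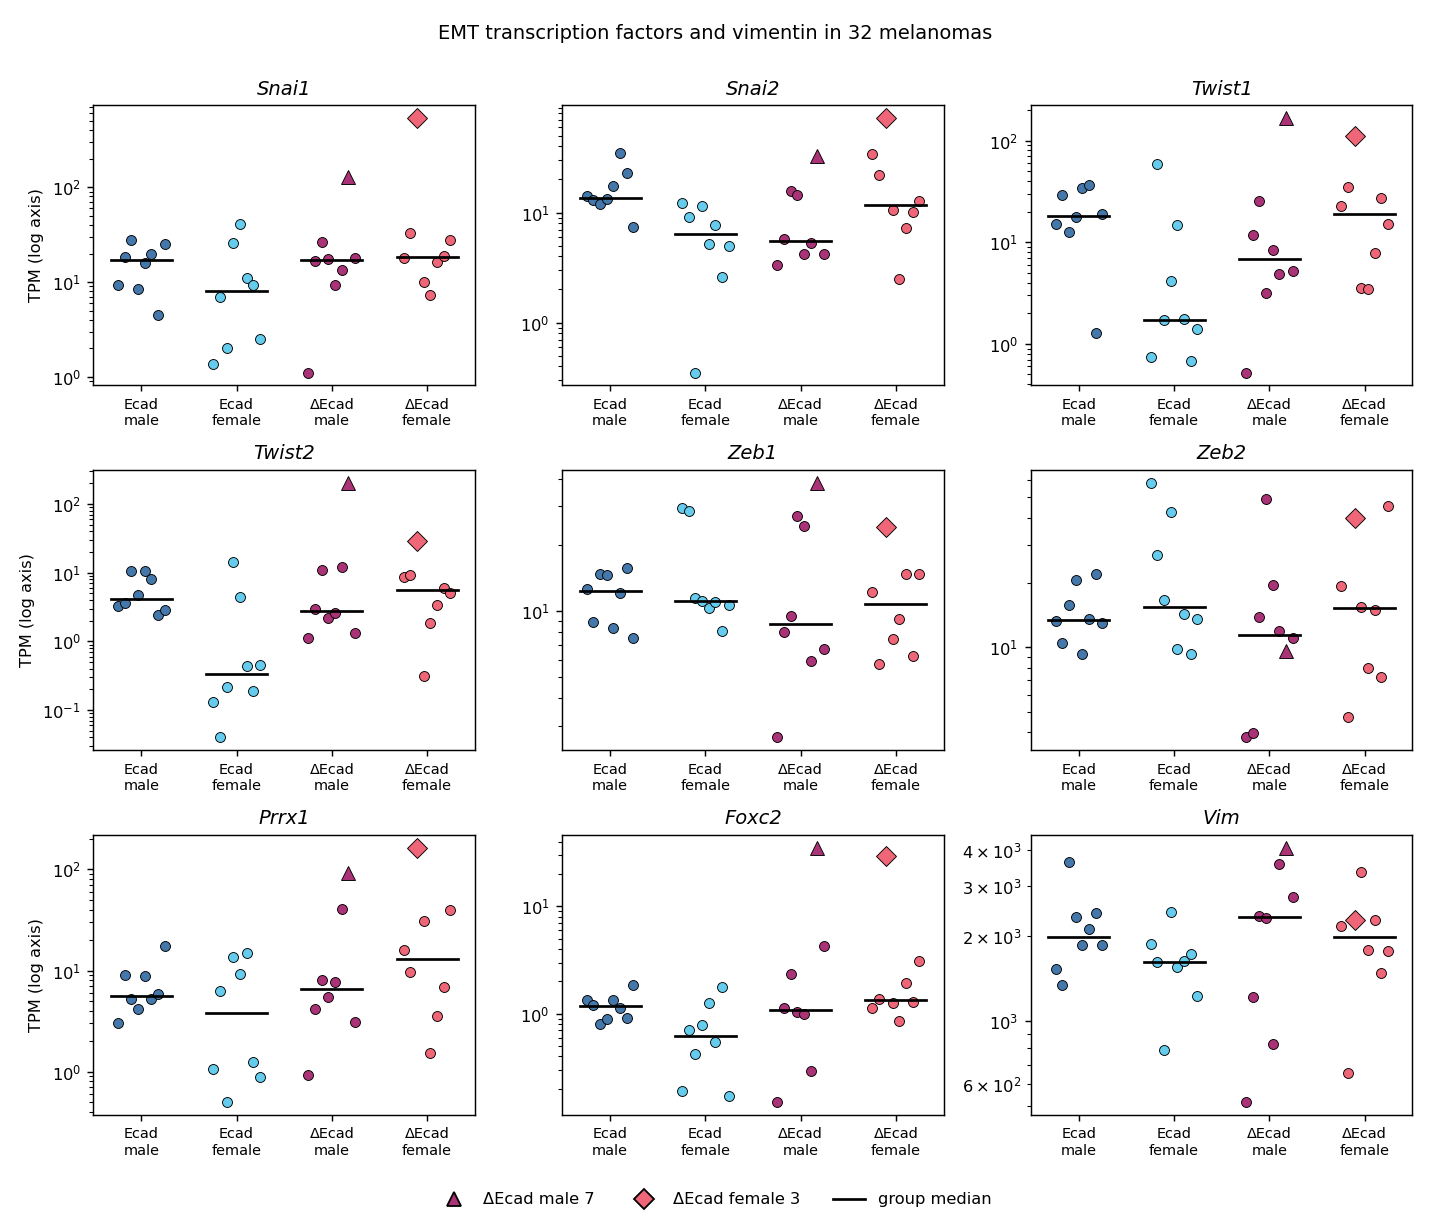
Level of each of the 9 genes in every tumour, in TPM on a log axis, by group; each point is 1 tumour, the black line is the group median of 8, the triangle is ΔEcad male 7 and the diamond ΔEcad female 3. The groups overlapped for every gene, and the highest Snai1 value, 533 TPM, was that of ΔEcad female 3.

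Vim, encoding vimentin (ENSMUSG00000026728, GRCm38 chr2:13573927-13582826, plus strand), was the most abundant of the 9 genes per length and the least variable. It ranged from 518 TPM in ΔEcad male 1 to 4082 TPM in ΔEcad male 7, a 7.88-fold range. The medians were 1978 TPM (males) and 1619 TPM (females) among Ecad tumours, and 2326 TPM (males) and 1969 TPM (females) among ΔEcad tumours. All 4 groups overlapped over most of their range.

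Zeb1 and Zeb2 were the next least variable, with 14.4-fold and 15.4-fold ranges over the 32 tumours. Zeb1 (ENSMUSG00000024238, chromosome 18, plus strand) had medians of 12.3 TPM (males) and 11.1 TPM (females) among Ecad tumours and of 8.76 and 10.7 TPM among ΔEcad tumours, with a lowest value of 2.66 TPM in ΔEcad male 1 and a highest of 38.2 TPM in ΔEcad male 7. Zeb2 (ENSMUSG00000026872, chr2:44983632-45117395, minus strand) had medians of 13.4 TPM (males) and 15.4 TPM (females) among Ecad tumours and of 11.5 and 15.2 TPM among ΔEcad tumours. Unlike Zeb1, Zeb2 was highest in Ecad female 1 (58.5 TPM) and was only 9.56 TPM in ΔEcad male 7. Both genes overlap annotated transcripts on the opposite strand, Gm10125 over 198 of the 10266 exonic bases of Zeb1 and Zeb2os over 653 of the 19942 of Zeb2. The strand setting of the counting was not given in the sources used here, so reads from these short stretches cannot be assigned with certainty.

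Snai1 (ENSMUSG00000042821, chr2:167538195-167542814, plus strand), the founding EMT repressor, ranged from 1.11 TPM in ΔEcad male 1 to 533 TPM in ΔEcad female 3. Its group medians lay between 8.1 TPM (Ecad females) and 18.4 TPM (ΔEcad females), with 17.1 TPM in Ecad males and 17.0 TPM in ΔEcad males. The next highest tumour was ΔEcad male 7 with 128 TPM, and the third, Ecad female 5, had 41 TPM. The spread of Snai1 at the top was thus that of 2 tumours, 1 of each sex and both ΔEcad.

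Snai2 (ENSMUSG00000022676, chr16:14705852-14709385, plus strand), a factor required for melanocyte development, had its highest group median in Ecad males and its lowest in ΔEcad males. Among Ecad tumours, males ranged from 7.34 to 34.9 TPM (median 13.7) and females from 0.35 to 12.1 TPM (median 6.4). Among ΔEcad tumours, males ranged from 3.35 to 32.8 TPM (median 5.53) and females from 2.51 to 72.0 TPM (median 11.6). No Ecad female exceeded the median of Ecad males, whereas 7 of 8 ΔEcad females exceeded the median of Ecad females. The latter count was also 7 for Snai1 and Twist2 and 8 for Twist1 and Foxc2.

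Twist1 (ENSMUSG00000035799, chr12:33957671-33959829, plus strand) was low in most Ecad females, where 6 of 8 tumours were at or below 4.2 TPM and the median was 1.73 TPM. Its medians were 18.3 TPM in Ecad males, 6.85 TPM in ΔEcad males and 18.9 TPM in ΔEcad females, and all 8 ΔEcad females were above the Ecad female median. Twist2 (ENSMUSG00000007805, chr1:91801461-91848028, plus strand), its paralogue, was likewise lowest in Ecad females, at lower levels, with medians of 4.19 TPM (males) and 0.33 TPM (females) among Ecad tumours and of 2.79 and 5.56 TPM among ΔEcad tumours. The highest values of both were in ΔEcad male 7, 166 TPM of Twist1 and 203 TPM of Twist2. The antisense gene Gm29100 shares 1477 of the 3174 exonic bases of Twist2, and its own counts reached 268, against 8315 for Twist2.

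Prrx1 (ENSMUSG00000026586, chr1:163245119-163313710, minus strand), a homeobox gene of mesenchyme, had medians of 5.55 TPM (males) and 3.77 TPM (females) among Ecad tumours and of 6.53 and 12.9 TPM among ΔEcad tumours. Its highest values were 164 TPM in ΔEcad female 3 and 91.5 TPM in ΔEcad male 7. Foxc2 (ENSMUSG00000046714, chr8:121116171-121118895, plus strand), a forkhead factor of lymphatic and mesenchymal development, was the least abundant member, with group medians from 0.63 to 1.33 TPM. Outside ΔEcad male 7 (35.4 TPM) and ΔEcad female 3 (29.8 TPM) it did not exceed 4.28 TPM.

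ΔEcad tumours were compared with Ecad tumours within each sex. In females, ΔEcad tumours had higher fitted levels of Snai1 (log2 fold change 2.57, SE 0.83), Foxc2 (2.59, SE 0.85), Prrx1 (2.33, SE 0.85) and Snai2 (1.62, SE 0.53) than Ecad tumours, but none of the 9 members passed the threshold of the quasi-likelihood test in edgeR (adjusted p below 0.05 and an absolute log2 fold change above 1), which 1.2% of all genes passed. The adjusted p was 0.0902 for Snai1, 0.0961 for Snai2 and Foxc2 and 0.141 for Prrx1. These 4 members had an unadjusted p below 0.05 with a higher level in ΔEcad females, as did 11.2% of all genes. Twist1 (1.47, SE 0.91) and Twist2 (1.66, SE 1.02) had adjusted p of 0.487 and 0.479. Single tumours moved both: Twist1 was 0.79 without ΔEcad female 3 and 2.86 without Ecad female 2, and Twist2 was 1.05 without ΔEcad female 3 and 3.09 without Ecad female 4. The median log2 fold change of the 9 members was 1.62 and that of all genes -0.02. DESeq2 called Snai2 (log2 fold change 1.66, adjusted p = 0.0215) and Prrx1 (2.36, adjusted p = 0.0316), and neither limma voom nor limma on log2(TPM + 1) called a member. The share of all genes that DESeq2 called is not given here, so its calls have no background beside them.

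Much of the female difference came with a single tumour. Without ΔEcad female 3 the log2 fold change of Snai1 was 0.58 (adjusted p = 0.711), that of Foxc2 1.02 (adjusted p = 0.511), that of Prrx1 1.29 (adjusted p = 0.433) and that of Snai2 1.10 (adjusted p = 0.253, edgeR). Of the 4, Snai2 kept the largest part of its difference. With all tumours kept, 4 of the 8 ΔEcad females were above the highest Ecad female in Snai2, and likewise 4 in Prrx1. ΔEcad female 3 was among them for both genes. Leaving out other tumours brought single members past the threshold in edgeR, Snai1 without Ecad female 5 (log2 fold change 3.12, adjusted p = 0.0421) and Snai2 without ΔEcad female 5 (1.78, adjusted p = 0.0459). The shares of all genes that passed in these fits are not given here. Fibroblast scores had a median of 7.29 in ΔEcad and 5.22 in Ecad females. With the fibroblast and melanocytic scores as covariates the log2 fold changes were 1.47 for Snai1, 1.20 for Snai2, 1.76 for Prrx1, 1.76 for Foxc2 and -0.24 for Twist1, all with an adjusted p of at least 0.638.

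In males, none of the 9 members passed the threshold, as did 0 of the 17717 genes. Twist2 (log2 fold change 2.27, SE 1.03, adjusted p = 0.470) and Foxc2 (2.22, SE 0.84, adjusted p = 0.427) had an unadjusted p below 0.05 with a higher level in ΔEcad males, as did 7.19% of all genes. Both differences rested on ΔEcad male 7: without it the log2 fold change was -0.05 for Twist2 (adjusted p = 0.987) and 0.64 for Foxc2 (adjusted p = 0.747). Twist1 turned from 0.43 to -1.05 and Snai2 went from -0.56 to -0.94 without this tumour. Leaving out the library labelled ΔEcad male 2 gave 2.44 for Twist2 and 2.36 for Foxc2. DESeq2, limma voom and limma on log2(TPM + 1) called no member in males.

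**Figure D2:**
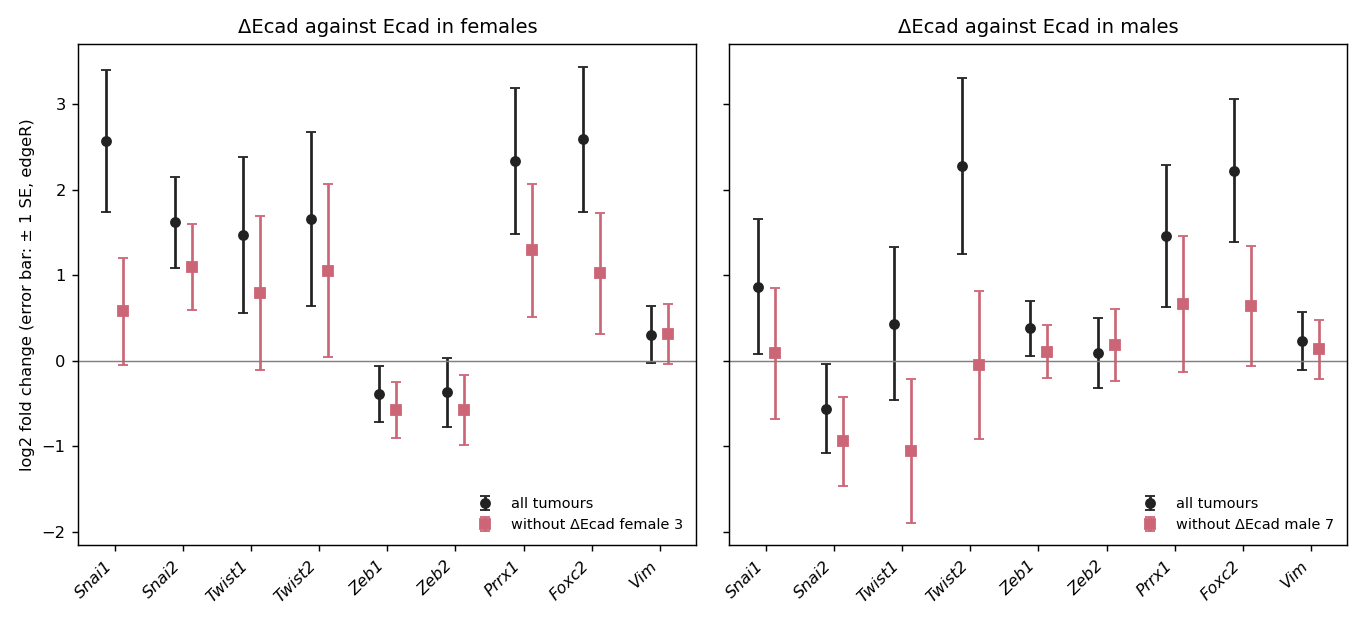
Log2 fold change of ΔEcad against Ecad tumours for the 9 genes in females (left) and males (right) from edgeR, error bars ± 1 SE; circles are all tumours (8 against 8), squares are without ΔEcad female 3 (left) or ΔEcad male 7 (right). In females Snai1 moved from 2.57 to 0.58, and in males Twist2 moved from 2.27 to -0.05.

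Zeb1, Zeb2 and Vim showed the smallest differences between the genotypes. In females their log2 fold changes were -0.39 (95% interval -1.02 to 0.24) for Zeb1, -0.37 (-1.16 to 0.42) for Zeb2 and 0.31 (-0.35 to 0.96) for Vim. In males the values were 0.38 (-0.25 to 1.01), 0.09 (-0.70 to 0.88) and 0.23 (-0.43 to 0.89) in the same order. None of these 6 intervals reached below -1.16 or above 1.01. Averaged over the sexes, Foxc2 (2.40, SE 0.60, adjusted p = 0.195), Prrx1 (1.90, SE 0.59, adjusted p = 0.271), Snai1 (1.72, SE 0.57, adjusted p = 0.309) and Twist2 (1.97, SE 0.72, adjusted p = 0.386) had an unadjusted p below 0.05 with a higher level in ΔEcad tumours, as did 7.25% of all genes. The averaged log2 fold change of Snai1 was 0.72 and that of Prrx1 1.37 without ΔEcad female 3, and without ΔEcad male 7 that of Twist2 was 0.80 and that of Foxc2 1.61. None of the 9 was called, against 0.0113% of all genes, and DESeq2 and both limma fits called none.

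The sexes were compared within each genotype. Among Ecad tumours only Snai2 had an unadjusted p below 0.05 in edgeR, with a log2 fold change of -1.34 in females against males (SE 0.53, adjusted p = 0.199). Of all genes, 10.3% had such a p with a lower level in females and 0.0508% were called. Twist1 (-1.06, SE 0.90) and Twist2 (-1.28, SE 1.01) had negative values with a larger error, which became -2.45 for Twist1 without Ecad female 2 and -2.71 for Twist2 without Ecad female 4, and the alternatives ranged up to 0.415 for Twist1 and down to -3.275 for Twist2. Among ΔEcad tumours none of the 9 had an unadjusted p below 0.05, against 8.81% of all genes in either direction, and none was called, against 0.0395%, and the log2 fold change of Snai2 was 0.84 (SE 0.52, adjusted p = 0.655), which became 0.32 without ΔEcad female 3 and 1.22 without ΔEcad male 7. For Snai2, 0.32 and 1.22 were the lowest and highest values with 1 tumour left out. The tumours left out included the library labelled ΔEcad male 2, whose sex genes did not match its label. No member was called in either comparison by DESeq2 or the limma fits.

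Whether the genotype difference itself differed between sexes was tested as an interaction. Snai2 had the smallest p of the 9, with a log2 difference of 2.18 between the female and the male fold change (SE 0.74, adjusted p = 0.106). It was the only member with an unadjusted p below 0.05, and 10.7% of all genes had one in that direction. In edgeR 0 of the 17717 genes passed the threshold. DESeq2 called Snai2 (2.26, adjusted p = 0.032), without its share of all genes given here, and the limma fits called no member. The Snai2 interaction was 1.66 without ΔEcad female 3 and 2.56 without ΔEcad male 7, so its sign did not turn on either. These were its lowest and highest values with 1 tumour left out, with an edgeR adjusted p from 0.0597 to 0.188. The library labelled ΔEcad male 2, whose sex genes did not match its label, was among those left out. The interaction of Twist2 went from -0.62 to 1.70 without ΔEcad male 7, and that of Snai1 from 1.70 to -0.29 without ΔEcad female 3.

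The pairs of the melanoma switch were compared over the 32 tumours. If ZEB2 and SNAI2 were exchanged for ZEB1 and TWIST1 from tumour to tumour, the genes within each pair would rise together and those across pairs would oppose each other. Of the 6 relations among the 4 genes on the log2 CPM scale, 2 passed a permutation test adjusted over the 6. Zeb2 rose with Zeb1 (Pearson r = 0.55, Spearman rho = 0.57, permutation p = 0.00108 and 0.00078, adjusted p = 0.00456 and 0.00378) and Snai2 rose with Twist1 (r = 0.53, rho = 0.55, permutation p = 0.00152 and 0.00126, adjusted p = 0.00456 and 0.00378). Both relations cross the pairs. Bulk RNA mixes cell types, so these relations do not show the balance within melanoma cells. The fibroblast score rose with Twist1 (r = 0.80) and Snai2 (r = 0.47), and its part in the relation of these genes was not tested. The keratinocyte score had r = -0.45 with Zeb2 (permutation adjusted p = 0.0425) and r = -0.42 with Zeb1 (permutation adjusted p = 0.0569). Its part in the relation of Zeb2 with Zeb1 was not tested either. The relations within pairs did not pass, with r = 0.05 for Zeb2 and Snai2 and r = 0.07 for Zeb1 and Twist1 (adjusted p = 0.801 for both). The only negative one, Zeb2 with Twist1, had r = -0.29 (permutation adjusted p = 0.21), and Snai2 with Zeb1 had r = 0.10. The size of these values depended on the scale: on log2(TPM + 1) r was 0.30 for Zeb2 and Snai2, 0.28 for Zeb1 and Twist1, 0.38 for Snai2 and Zeb1 and -0.05 for Zeb2 and Twist1, and none of these passed. With the group means removed the within-pair values were 0.20 and 0.21.

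The 2 relations differed in what they rested on. For Zeb2 and Zeb1, r was 0.71 without ΔEcad male 7, which combined the highest Zeb1 with a Zeb2 level below the median, 0.69 without both extreme tumours and 0.55 with the group means removed (permutation adjusted p = 0.0147). Leaving out the 2 tumours that lay farthest from the Zeb2 median, it was 0.42 (permutation adjusted p = 0.0609), so this relation no longer passed without these tumours. For Snai2 and Twist1, r was 0.41 without both extreme tumours (permutation adjusted p = 0.064), 0.38 with the group means removed (permutation adjusted p = 0.141) and 0.47 without those 2 that lay farthest from the Snai2 median (permutation adjusted p = 0.0568).

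**Figure D3:**
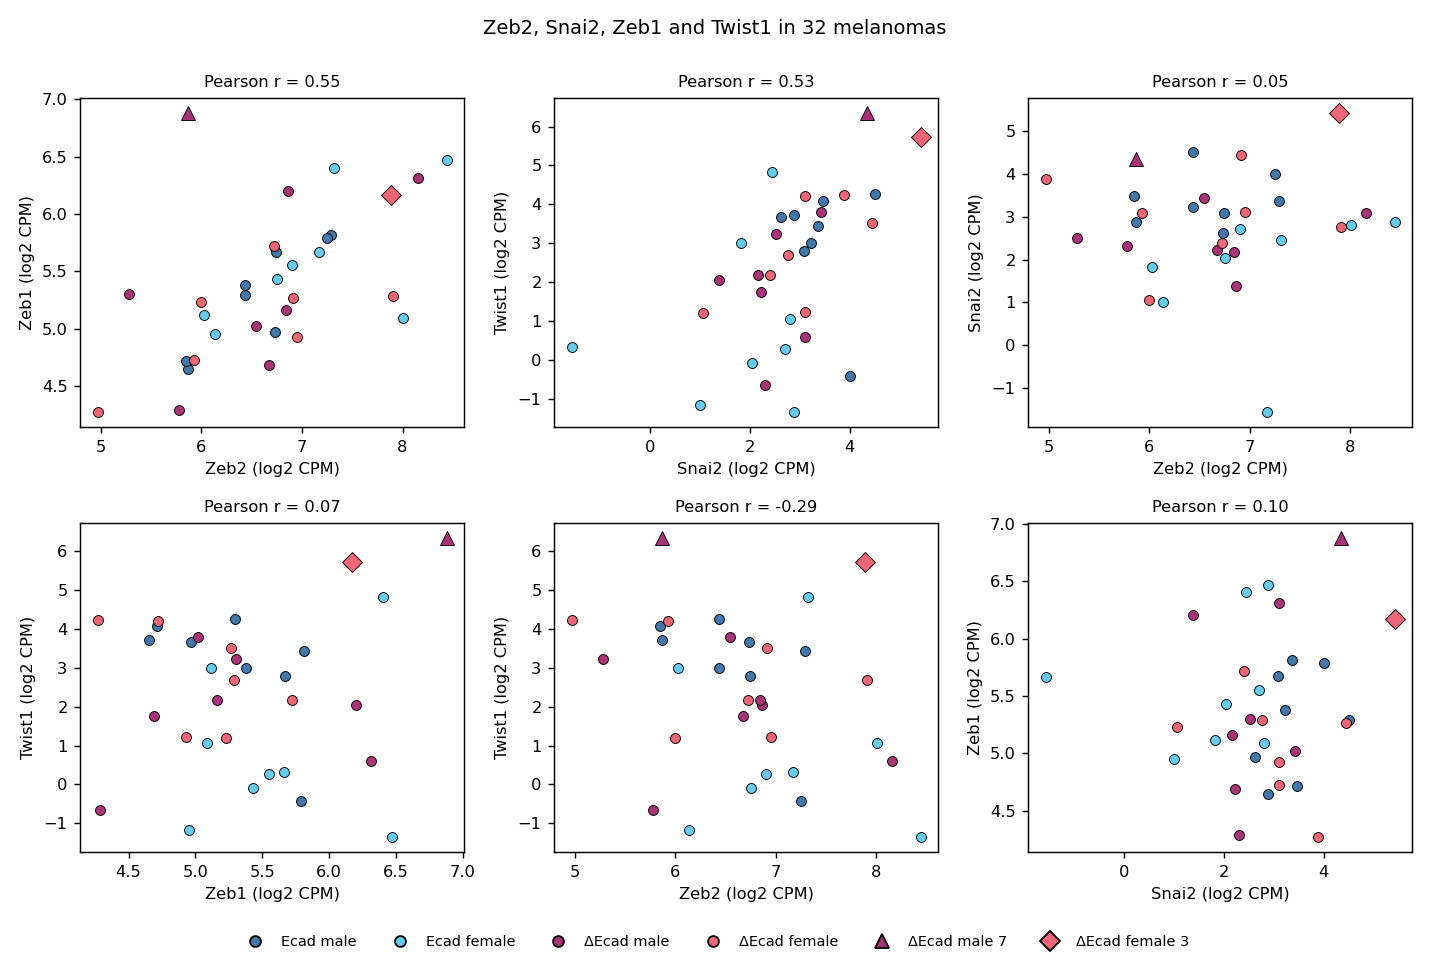
The 6 pairs among Zeb2, Snai2, Zeb1 and Twist1, each axis in log2 CPM, 1 point per tumour and coloured by group; the triangle is ΔEcad male 7 and the diamond ΔEcad female 3. Zeb2 and Zeb1 (r = 0.55) and Snai2 and Twist1 (r = 0.53) rose together, and the other 4 pairs had r between -0.29 and 0.10.

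Per length, Zeb2 exceeded Zeb1 in 25 of the 32 tumours, with a median ratio of 1.28, and Snai2 exceeded Twist1 in 11, with a median ratio of 0.82. The exceptions for Zeb2 included ΔEcad male 7, where the ratio to Zeb1 was 0.25, the lowest of all. A switch score, the mean log2 CPM of Zeb2 and Snai2 minus that of Zeb1 and Twist1, described the balance. It had its lowest value, -1.51, in ΔEcad male 7 and its highest values in Ecad female 1 (3.11) and Ecad male 7 (2.95). Its medians were 0.66 (males) and 1.70 (females) among Ecad tumours and 0.71 and 0.66 among ΔEcad tumours, and the groups overlapped. Ecad female 1 and Ecad male 7 reached their scores through little Twist1 (0.75 and 1.28 TPM) more than through much Snai2 (12.1 and 22.7 TPM). Ecad female 1 also had the highest Zeb2 of the 32 tumours (58.5 TPM), beside the second highest Zeb1 (29.4 TPM). In ΔEcad male 7, Zeb1, Twist1 and Snai2 (32.8 TPM) were all high, and of the 4 genes only Zeb2 was below its median. This tumour also had the lowest melanocytic and the highest fibroblast score. Its cell content and the balance within melanoma cells cannot be told apart.

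The members were also set beside each other by rank correlation across tumours. Snai1 ranked the tumours most like Twist2 (Spearman rho = 0.72), Foxc2 (0.68), Prrx1 (0.64) and Twist1 (0.62) among the members, values given as descriptions over the same 32 libraries. Without ΔEcad male 7 and ΔEcad female 3 these were 0.66, 0.61, 0.57 and 0.54 over 30 tumours. Of the 17716 other genes ordered by their rho with Foxc2, Snai1 was at rank 17, and in the order for Snai1, Twist2 was at rank 91. Among Twist1, Twist2, Prrx1 and Foxc2 rho ranged from 0.37 (Twist2 with Foxc2) to 0.60 (Twist1 with Twist2). Zeb1 had rho of -0.20 to Snai1, -0.19 to Twist2, -0.21 to Prrx1, -0.12 to Foxc2 and -0.04 to Twist1, and -0.41, -0.40, -0.43, -0.32 and -0.23 without the 2 tumours. Vim had its highest rho with Snai1 (0.31) and with Twist2 (0.30).

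The windows before the starts of Snai1, Twist1 and Twist2, 3 members that varied together, were searched for the E-box letters CAGGTG and, on the other strand, CACCTG, the form that SNAI and ZEB proteins bind. The 250 bases before each RefSeq start (GRCm38.p6) are printed on the plus strand, which all 3 genes use, with a match in capitals. Snai1 at chr2:167537945-167538194 holds 1 match, which begins 126 bases before the start. Twist1 at chr12:33957421-33957670 and Twist2 at chr1:91801211-91801460 hold none.
Snai1: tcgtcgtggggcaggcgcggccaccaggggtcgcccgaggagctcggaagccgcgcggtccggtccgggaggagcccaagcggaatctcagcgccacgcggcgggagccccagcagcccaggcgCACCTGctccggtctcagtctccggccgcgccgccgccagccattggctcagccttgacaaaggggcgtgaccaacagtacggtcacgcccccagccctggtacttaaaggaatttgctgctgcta
Twist1: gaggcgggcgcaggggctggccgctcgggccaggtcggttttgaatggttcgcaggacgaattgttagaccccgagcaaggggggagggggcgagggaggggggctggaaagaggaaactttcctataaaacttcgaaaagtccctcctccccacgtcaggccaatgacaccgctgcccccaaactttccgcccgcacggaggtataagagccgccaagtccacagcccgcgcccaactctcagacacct
Twist2: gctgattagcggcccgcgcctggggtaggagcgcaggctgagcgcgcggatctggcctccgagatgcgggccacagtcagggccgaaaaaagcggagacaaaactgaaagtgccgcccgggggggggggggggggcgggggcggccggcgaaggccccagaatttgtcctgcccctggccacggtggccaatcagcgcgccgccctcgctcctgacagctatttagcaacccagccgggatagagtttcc
RefSeq windows were matched for 6 of the 9 members. Those of Zeb2, Prrx1 and Vim hold no match either, and 17.2% of the 32851 windows of this length hold at least 1. A match is a description of these letters and not a bound site.

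The genes whose levels ranked the tumours most like each member are named by Spearman rho among the 17716 other genes tested, as a description over 32 tumours. For Snai1 they were Col6a2 (0.93) and Col6a1 (0.92), collagen VI chains, and the glucose transporter gene Slc2a10 (0.90). For Twist1 they were the transcription factor genes Tbx15 (0.87) and Ebf1 (0.87) and Sertad4 (0.86), and for Twist2 they included the transcription factor genes En1 (0.88) and Nfatc4 (0.88). Prrx1 was nearest to Fat4 (0.85), Tsku (0.82) and Kmt5a (0.80), and Foxc2 to the chemokine gene Cxcl12 (0.75), Ehd2 (0.74) and Fam43a (0.73). Snai2 was nearest to Ccdc112 (0.78), Ttc39c (0.77) and Slc7a6 (0.76). Zeb1 was nearest to Rdx (0.85), Rp2 (0.84) and Usp1 (0.80), and Zeb2 to Fmnl2 (0.89), Gabpa (0.89) and Scyl2 (0.88). Vim was nearest to Anxa6 (0.73), Tagln2 (0.72) and Vwa5a (0.72), of which the first encodes an annexin and Tagln2 an actin-binding protein.

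Scores of cell type markers were set beside the members over the 32 tumours. The fibroblast score, the mean log2 CPM of Pdgfra, Dcn, Lum, Col1a1, Col1a2, Col3a1, Dpt and Fbln1, rose with 6 members. The Pearson r was 0.81 for Twist2, 0.80 for Twist1 and 0.73 for Snai1 (permutation p = 1e-05, the smallest that 100000 permutations can give, adjusted p = 0.00012 for each). It was 0.61 for Foxc2 and 0.60 for Prrx1 (permutation adjusted p = 0.00166 for both) and 0.47 for Snai2 (permutation adjusted p = 0.0278). For Zeb1 (0.03), Zeb2 (-0.23) and Vim (0.21) the relation did not pass. Without ΔEcad male 7 and ΔEcad female 3, r was 0.81 for Snai1, 0.79 for Twist1, 0.78 for Twist2, 0.56 for Prrx1 and 0.56 for Foxc2, all passing, and 0.43 for Snai2 (permutation adjusted p = 0.0557).

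**Figure D4:**
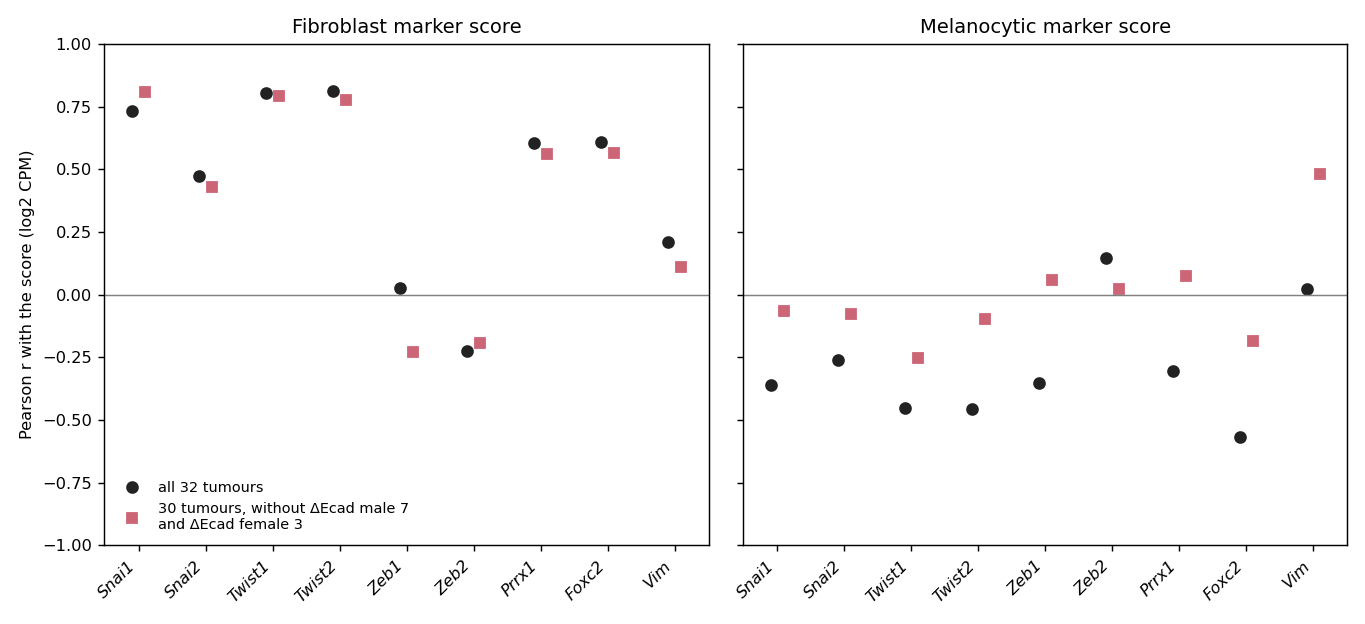
Pearson r of each of the 9 genes with the fibroblast marker score (left) and the melanocytic marker score (right) over tumours, in log2 CPM; circles are all 32 tumours and squares the 30 tumours without ΔEcad male 7 and ΔEcad female 3. With the fibroblast score r was 0.81 for Twist2 and 0.03 for Zeb1, and the melanocytic r of Foxc2 moved from -0.57 to -0.19.

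The melanocytic score fell with Foxc2 (r = -0.57, permutation adjusted p = 0.0247) and Twist1 (-0.45, permutation adjusted p = 0.0247). Neither relation passed without both extreme tumours, where r was -0.19 for Foxc2 and -0.25 for Twist1. In those 30 tumours Vim rose with the melanocytic score (r = 0.48, permutation adjusted p = 0.0292), whereas over all 32 its r was 0.02. The keratinocyte score fell with Zeb2 (r = -0.45, permutation adjusted p = 0.0425), but this did not pass by Spearman's rho (-0.44, permutation adjusted p = 0.0547), on log2(TPM + 1) (r = -0.33, permutation adjusted p = 0.183) or with the group means removed (-0.40, permutation adjusted p = 0.153). Without both extreme tumours that score also rose with Twist1 (0.66) and Twist2 (0.61), whose r over all tumours with the group means removed was 0.22 and 0.10. No member passed with the macrophage score. In all, 9 of the 36 relations of 9 members with 4 scores passed, 6 positive and 3 negative, and by Spearman's rho 7 passed, none of them negative. With the group means removed 5 passed, the fibroblast score with Snai1, Twist1, Twist2 and Prrx1, which were among the 9, and the keratinocyte score with Vim (r = -0.59, permutation adjusted p = 0.00783), which was not (r = -0.40, permutation adjusted p = 0.0651).

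Cdh1 RNA was related to each of the 9 members over the 32 tumours. In ΔEcad mice Cdh1 is deleted by design in cells of the melanocyte lineage. Its bulk RNA in those tumours therefore does not report repression in these cells, and which cells it came from was not tested. Prrx1 (r = -0.53, permutation adjusted p = 0.0167) and Snai1 (r = -0.45, permutation adjusted p = 0.0466) fell as Cdh1 rose, and Foxc2 had r = -0.41 (permutation adjusted p = 0.0535). By ranks the relations were weaker, with rho = -0.36 for Prrx1 (permutation adjusted p = 0.41) and -0.16 for Snai1 (permutation adjusted p = 0.607). They rested on the tumours at the ends: leaving out the 2 that lay farthest from the Cdh1 median, r was -0.31 for Prrx1 and -0.23 for Snai1, and none of the 9 passed. Without ΔEcad male 7 and ΔEcad female 3 the values were -0.31 and -0.11. With the group means removed only Prrx1 passed (r = -0.60, permutation adjusted p = 0.0152). Zeb1 (-0.23) and Zeb2 (-0.16), the best known direct repressors of Cdh1 beside Snai1, did not pass.

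Other genes of the programme were counted in lists of partners, targets and inducers. Among 16 epithelial target genes tested, 1 was called higher in ΔEcad females than in Ecad females, the tight junction gene Tjp3 (log2 fold change 3.46, SE 0.86, adjusted p = 0.0463), and 9 had an unadjusted p below 0.05 with a higher level, beside 1.2% and 11.2% of all genes. The list's median log2 fold change was 2.99 in females, -1.47 in males and 4.22 in the interaction, against -0.02, 0.11 and -0.16 for all genes, and none was called in the last 2 comparisons, although 13 of the 16 had an unadjusted p below 0.05 and a positive interaction, as did 10.7% of all genes. The keratinocyte score moved in the same direction, as given above for Cdh1; its part in these differences was not tested. Tjp3 was called in 6 of 16 fits that each left out 1 tumour (adjusted p from 0.0246 to 0.123).

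Of 16 mesenchymal genes, Acta2, encoding smooth muscle actin, was called higher in ΔEcad females (log2 fold change 3.06, SE 0.80, adjusted p = 0.0497). Its value in ΔEcad female 3 was 3978 TPM against a median of 106 TPM in the group, and without that tumour the log2 fold change was 0.68 (adjusted p = 0.542). Of 12 inducing ligands and receptors, Bmp4 was called higher in ΔEcad females (2.96, SE 0.71, adjusted p = 0.0429), with medians of 3.60 and 0.45 TPM, and was called in 6 of 16 such fits (adjusted p from 0.0236 to 0.12). In this comparison 1.2% of all genes were called. The keratinocyte score was also higher in ΔEcad than in Ecad females (medians 6.36 and -3.39), and its part in the Bmp4 difference was not tested. No gene of these 3 lists was called in any other comparison.

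No gene was called in any comparison among 22 partner and further EMT regulators and 14 corepressors. Nor was any among 10 genes listed as regulators of protein stability and 9 intermediate filament relatives of vimentin. In females 1.2% of all genes were called. Of the 22 partners, 10 had an unadjusted p below 0.05 in edgeR with a higher level in ΔEcad females and 1 with a lower level. Of all genes 11.2% and 4.13% did so. The partners' median log2 fold change was 0.97, against -0.02 for all genes. In the interaction 9 were positive and 1 negative at that p, beside 10.7% and 6.94% of all genes. The smallest p among the partners was that of Prrx2, the paralogue of Prrx1, in females (log2 fold change 3.85, SE 1.09, adjusted p = 0.0572). Like Prrx1 it was highest in ΔEcad female 3 (184 TPM) and ΔEcad male 7 (140 TPM), and its log2 fold change without ΔEcad female 3 was 1.87. Esrp2, an epithelial splicing regulator that EMT factors repress, pointed the same way (5.13, SE 1.61, edgeR adjusted p = 0.0828). The keratinocyte score was also higher in ΔEcad females, and its part in the Esrp2 difference was not tested. The corepressor genes Ajuba (1.17, SE 0.33, adjusted p = 0.0572) and Ctbp1 (-0.52, SE 0.23, adjusted p = 0.251) differed in direction. In the list of stability regulators, Fbxl5 (-0.72, edgeR adjusted p = 0.107) was lower in ΔEcad females without being called. The same held for Pkd1 (-0.67, edgeR adjusted p = 0.103), which encodes polycystin 1 and is not an established regulator of this kind. The filament genes with the smallest p were Prph in Ecad females against males (-1.48, adjusted p = 0.201) and Des in ΔEcad females against males (2.73, adjusted p = 0.539), and neither passed.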

How the data were processed

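The deposited data were 2 tables of the authors over the same 50600 Ensembl genes and 32 tumours, 1 of read counts per gene, not normalised, and 1 of TPM. Per the study's methods and the submitters' processing notes, RNA was extracted with a miRNeasy kit, stranded poly(A) libraries were sequenced as paired reads, checked with FastQC 0.11.5 and aligned with STAR to mm10 (GRCm38.p5). The authors applied ComBat where they judged it applicable; no batch was named in the labels, and the deposited counts are whole numbers. The deposited TPM values are the same counts rescaled. Over 996 highly counted genes, the ratio of counts to TPM was centred on the median of each tumour and of each gene. For 99% of these genes the largest deviation in any tumour was then at most about 0.03%. Gene names came from GENCODE for 50376 IDs.

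Samples were grouped by their titles. Counts were fitted with edgeR 4.0.16 (R 4.3.3; TMM scaling, filterByExpr by group, robust quasi-likelihood fit of all 32 tumours, 1 coefficient per group), and a gene was called where its p, adjusted by the Benjamini-Hochberg method, was below 0.05 and its absolute log2 fold change above 1. Log2 CPM used a prior count of 1 and log2(TPM + 1) a pseudocount of 1. Relations over tumours were tested two-sided with 100000 permutations (numpy 2.4.6), adjusted over the 6 switch pairs, the 9 relations with Cdh1 and the 36 with marker scores. Marker scores are means of log2 CPM over each list. Intervals are 95% normal intervals from the edgeR SE. The scripts were tested on simulated data. DESeq2 1.42.0, limma 3.58.1, other scalings and filters, covariates, a replicate block and leaving out each tumour were alternatives. Named genes were the 9 members, Cdh1, up to 4 called genes of each other list or else the 2 with the smallest p, and the 3 nearest genes by Spearman rho, of which 1 for Twist2 is not reported here; Sox10, Xist and the cell markers were named as checks. The members and lists were chosen with earlier results of these data known. Promoter windows came from RefSeq (GRCm38.p6).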

Additional observations from a re-analysis of the deposited data

Results flagged for a closer look

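Dixon's test on log2 CPM set 1 tumour apart from the other 7 of its group in 7 of the 40 group values examined, where chance alone gives about 1 in 20. ΔEcad female 3 was high in Snai1 (7.99, next tumour 4.15) and in Foxc2 (4.58, next 1.16). ΔEcad male 7 was high in Twist2 (7.62, next 4.03). Ecad female 3 was low in Snai2 (-1.57, next 1.00; 0.35 TPM). Ecad male 7 was low in Twist1 (-0.42, next 2.80; 1.28 TPM) and high in the switch score (2.95, next 0.70), which contains Twist1. Ecad male 8 was high in Foxc2 (1.09, next 0.29; 1.87 TPM), a value within the range of the other groups.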

How the results depend on the processing

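No member was called in any of the 6 comparisons, and this count was 0 under every alternative except these: DESeq2 called 2 members in the female comparison and 1 in the interaction, and leaving out single tumours gave 0 to 1 in the female comparison. The shares of all genes called in these fits are not given here. DESeq2 replaces counts it marks as outliers in groups of this size, and its log2 fold change of Snai1 in females was 0.62 (adjusted p = 0.666). Twist2 in males changed sign with DESeq2 (-0.11), without ΔEcad male 7 (-0.049; range over single tumours left out -0.049 to 2.469) and without the 2 extreme tumours (-0.048), its interaction became 2.91 with limma voom, and Twist1 in ΔEcad females against males became 1.40 with the marker scores as covariates; beyond the tumours left out, the cause was not tested. The 2 relations of the switch genes that passed became 1 with the group means removed, 1 without the 2 extreme tumours and 0 without the 2 tumours that lay farthest on the x axis. The 2 relations with Cdh1 became 0 by Spearman's rho, 0 on log2(TPM + 1), 1 with the group means removed, 1 without ΔEcad male 7, 0 without the 2 extreme tumours and 0 without the 2 farthest. Of the 9 relations with marker scores 4 still passed with the group means removed, and with 1 further relation the count was 5; Foxc2 with the macrophage score turned to r = 0.47 without the 2 farthest tumours. The replicate block called 0 members in all 6 comparisons. Tumours that share a number did not deviate together (at most 4 of 8 pairs with r over 0.1 in any pair of groups, and at most 1 of 8 nearest to its own number), so the numbers were taken as names. Leaving out the 2 extreme tumours, with or without the library labelled ΔEcad male 2, was chosen after seeing the data. With 8 tumours a group and a common dispersion of 0.624, the width of the intervals limits what the comparisons could show. Twist2 and Foxc2 had the lowest counts in a library among the members, 1 and 6, and the part of depth in their intervals was not tested.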
